A study of Mus musculus with 6 samples.

Results

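The genes described here are 10 transcription regulators that have been reported to switch on genes in the mouse embryo between the 2-cell and the morula stage: *Nr5a2*, *Rarg*, *Gabpa*, *Nfya*, *Dppa2*, *Dppa4*, *Obox3*, *Obox6*, *Klf5* and *Sp1*. They were taken from a list of names, with no threshold on a measured value, and all 10 were among the 55364 genes for which expression was listed. Of the 10, 9 were expressed highly enough to be tested, among 17353 genes tested in all. RNA-seq was performed on morulae developed from BDF1 x BDF1 zygotes (oocytes of 8 to 12 week old females, sperm of 10 to 12 week old males) into which a control siRNA (control KD) or an siRNA against *Yy1* (*Yy1* KD) had been injected. Embryos of both groups were cultured in KSOM medium and collected 64 h after insemination, and each of the 3 libraries of a group held the RNA of 10 pooled morulae. Expression was given as TPM, a share of all transcripts that is corrected for gene length. The siRNA target, YY1, is a DNA-binding protein that can activate or repress genes. The siRNA was injected before the first cleavage, and the pools hold inner and outer cells together.

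After fertilization the embryonic genome is silent, and the embryo lives on RNA and protein stored in the oocyte. Gene activation then begins in waves, and each of the factors described here has been linked to one of them. Some, such as DPPA2, DPPA4, the OBOX homeodomain proteins and NF-Y, have been linked to the first activation around the 2-cell stage. Others, such as the nuclear receptors NR5A2 and RARG, KLF5 and the ETS factor GABPA, have been linked to the stages that lead to the morula and its first cell types. SP1 binds GC-rich promoters in nearly all cells. Whether the RNA of these factors differs in *Yy1* KD morulae is the question of the comparison.

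*Yy1* itself was at 96.0, 100.2 and 89.8 TPM in control KD and at 8.73, 8.90 and 8.32 TPM in *Yy1* KD libraries, 9.07% of the control mean. The libraries held between 11793509 and 24417789 read pairs on genes and listed between 16696 and 17687 genes at 1 TPM or more. All 18 genes of a list of morula and lineage markers were expressed, with a summed level of 7445 to 8064 TPM in control KD and 7250 to 7864 TPM in *Yy1* KD libraries, most of it from *Dppa3*. Of these markers, 1 was called by limma and 6 had an unadjusted p under 0.05, and 5 were lower and 2 higher in *Yy1* KD libraries without overlap. Over all genes tested, 6.11% were called and 30.1% had groups that did not overlap. *Sox2*, *Fgf4* and *Tdgf1*, genes of the inner cells named after their values were seen, were at 51.0%, 44.4% and 53.5% of the control mean and were not called. Of other markers of the list, *Nanog*, *Pou5f1* and *Utf1* had overlapping groups, and *Gata6* was higher without overlap. The part of these marker differences in the values of the factors was not tested. The 11 oocyte transcripts, which summed to 80.6 to 113 TPM against 85.3 to 117 TPM, held 0 genes called by limma, and 0 had an unadjusted p under 0.05. Of 12 cumulus and granulosa markers 5 were at 0 in all libraries (sums 12.2 to 15.2 against 13.5 to 14.2 TPM). Of 6 sperm markers 1 was at 0 in all libraries and 4 were under 1 TPM throughout (sums 0.322 to 0.599 against 0 to 2.26 TPM).

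In control KD morulae, *Dppa2* was the most abundant of the factors, with a mean of 738 TPM, at percentile 99.1 of the genes at 1 TPM or more. *Obox6* (546 TPM), *Klf5* (344 TPM), *Dppa4* (276 TPM), *Nr5a2* (202 TPM), *Gabpa* (144 TPM), *Rarg* (115 TPM) and *Sp1* (90.4 TPM) followed. *Nfya* stood lower, at 25.3 TPM (percentile 71.1), and *Obox3* was under 1 TPM in every control KD library. The 3 control values of each factor were separate from those of its neighbours in this order. The factors also differed in how much they varied between control KD libraries. The SD was 18.6% of the mean for *Obox6* and 3.37% for *Nfya*.

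**Figure D1:**
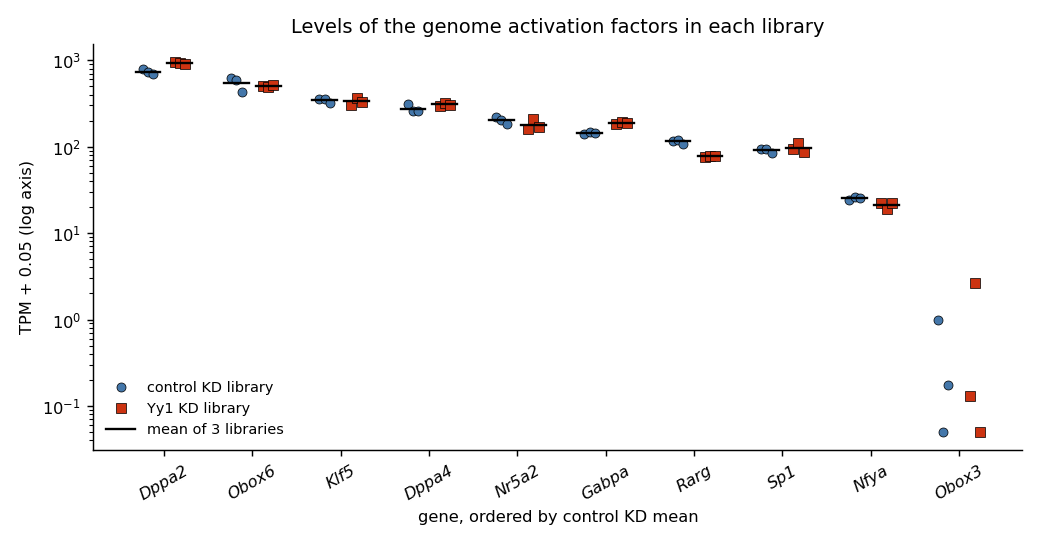
Level of each factor in every library, as TPM plus 0.05 on a log axis, with genes ordered by their control KD mean (circles, control KD; squares, *Yy1* KD; bars, means of 3 libraries, left out for *Obox3*, which had libraries at 0). The groups are apart for *Dppa2*, *Gabpa*, *Rarg* and *Nfya*, while the levels of *Obox3* lie between 0 and 2.59 TPM.

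In the test across all genes (limma on log2(TPM + 1), two-sided, Benjamini-Hochberg adjusted over 17353 genes, called at an adjusted p under 0.05), *Gabpa* rose and *Rarg* fell in *Yy1* KD morulae, and the other 7 factors tested were not called. Of the tested factors 2 of 9 were thus called, where 6.11% of all genes were called (1.92% higher and 4.2% lower). The 3 control KD and 3 *Yy1* KD values did not overlap for 4 factors, *Gabpa* and *Dppa2* higher and *Rarg* and *Nfya* lower, where this was so for 30.1% of all genes. The median log2 fold change of the 9 factors was -0.04, with 4 above and 5 below 0, beside a median of -0.03 over all genes. No source says that the libraries came from separate cultures, so the p-values measure the spread between these libraries. In pools of whole embryos, fewer cells of a type and less RNA per cell cannot be told apart.

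**Figure D2:**
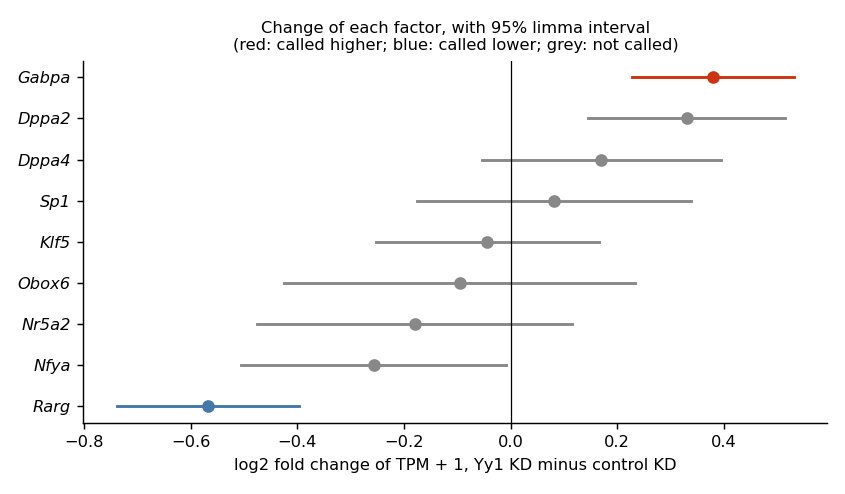
Log2 fold change of TPM + 1 of the 9 tested factors, *Yy1* KD minus control KD, with the 95% interval of limma (red, called higher; blue, called lower; grey, not called). Points run from -0.57 for *Rarg* to 0.38 for *Gabpa*, and the intervals of *Dppa2* and *Nfya*, which were not called, also lie to one side of 0.

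*Rarg* (ENSMUSG00000001288.15) encodes retinoic acid receptor gamma, a nuclear receptor that binds DNA together with a retinoid X receptor and is switched by retinoic acid. It lies on the minus strand at chr15:102234938-102257517 (GRCm38). Its level was 116, 121 and 109 TPM in control KD libraries and 75.7, 78.4 and 77.9 TPM in *Yy1* KD libraries. All *Yy1* KD values were below all control KD values. Means were 115 ± 6.01 and 77.4 ± 1.45 TPM (SD, n = 3 libraries each), the second being 67.1% of the control, a log2 fold change of -0.57 (standard error 0.07, 95% interval -0.74 to -0.40, limma adjusted p = 0.0127 after Benjamini-Hochberg adjustment). The call was lost without any one of the 3 control KD libraries, at limma adjusted p between 0.0511 and 0.0546, and was kept without any one of the *Yy1* KD libraries (over all 18 alternatives, 0.001995 to 0.0546). Its log2 fold change stayed between -0.609 and -0.535 in these fits. Over all genes, leaving out a control KD library gave 22 to 48 higher and 53 to 151 lower calls. Leaving out a *Yy1* KD library gave more, 54 to 92 higher and 168 to 326 lower.

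The region before the first RefSeq start of *Rarg* is shown because *Rarg* had the largest difference of the factors in absolute log2 terms. It covers chr15:102257523-102257772 on the minus strand of GRCm38.p6 and lies outside the annotated exons of the gene. Capitals mark GGGCGG, the core bound by SP1 and its relatives (CCGCCC on the other strand), and CCACCC, a sequence bound by KLF factors (GGGTGG on the other strand).
Rarg promoter, 250 bases before the start: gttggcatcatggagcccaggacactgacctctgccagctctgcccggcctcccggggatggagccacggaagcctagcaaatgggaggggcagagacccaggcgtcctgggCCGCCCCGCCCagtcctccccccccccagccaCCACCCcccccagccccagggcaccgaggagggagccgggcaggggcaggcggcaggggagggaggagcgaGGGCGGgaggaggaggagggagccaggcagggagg
The letters GGGCGG were found at 138, 133 and 35 bases before the start, the first pair sharing 1 base, and CCACCC at 106 bases before it. With the 50 bases after the start, the promoter was 70.0% G and C, beside a median of 52.7% over all 32851 RefSeq promoters. GGGCGG occurred in 35.7% and CCACCC in 31.5% of all promoters. Counted per gene, 6475 and 3863 of 9755 tested genes had them in any of their promoters. A gene can have several promoters, so these counts cannot be set against the shares of promoters. The letters GCCATNTT, a core sequence bound by YY1, were found neither in this promoter nor in that of the second RefSeq start of *Rarg*, which lies within the gene.

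*Nr5a2* (ENSMUSG00000026398.14, chr1:136842571-136960448, minus strand) encodes an orphan nuclear receptor, also called LRH-1, that binds DNA as a monomer. Its level was 220, 203 and 181 TPM in control KD and 158, 208 and 169 TPM in *Yy1* KD libraries. The second *Yy1* KD library lay among the controls, and the groups overlapped. The log2 fold change was -0.18 (95% interval -0.48 to 0.12, limma adjusted p = 0.436).

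*Rarg* made up between 95.1% and 96.4% of the summed TPM of the 3 retinoic acid receptor genes in control KD and between 93.9% and 95.8% in *Yy1* KD libraries. *Rara* and *Rarb* were at 4.18 TPM or less in every library, so *Rarg* was the main receptor RNA of its kind in both groups. *Rxra*, its partner, was at 55.7, 60.3 and 59.1 TPM in control KD and 48.6, 44.6 and 45.9 TPM in *Yy1* KD libraries. Its groups did not overlap, but it was not called (log2 fold change -0.33, 95% interval -0.51 to -0.14, limma adjusted p = 0.0610). The ratio of *Rarg* to *Rxra* was 2.09, 2.002 and 1.84 in control KD and 1.56, 1.76 and 1.70 in *Yy1* KD libraries, which were all lower. Of 20 genes of retinoid receptors and the retinoic acid pathway 10 were tested and 0 were called by limma, while 3 had an unadjusted p under 0.05. Of these 3, *Rxra* was lower. *Rdh10* (log2 fold change 0.76) and *Crabp2* (1.22, at means of 0.493 and 2.73 TPM) were higher, both without overlap. With a filter at a mean TPM of 5 limma called 1 gene of the list (11.4% of all genes called there), as did limma-voom on recovered read pairs (12.3%). The 10 tested genes had a median log2 fold change of -0.24.

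Among 17 other orphan nuclear receptors and coregulators, 13 were tested and 1 was called. *Ncor1*, a corepressor that nuclear receptors recruit in the absence of ligand, fell from 40.5 ± 5.64 to 23.2 ± 1.77 TPM (SD of 3 libraries, log2 fold change -0.77 with a standard error of 0.12, limma adjusted p = 0.0233). This call was lost in all 6 fits that left out 1 library (limma adjusted p between 0.0513 and 0.0808). Exons of *Ncor1* overlap those of other annotated genes, so it was not part of the fit on genes without exonic overlap. The most abundant gene of the list, the coactivator *Ncoa3*, was at 299 ± 7.60 and 298 ± 11.5 TPM, with a log2 fold change of -0.003 (95% interval -0.15 to 0.15). The median of the list was -0.08.

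*Gabpa* (ENSMUSG00000008976.16, chr16:84834925-84863779, plus strand) encodes the DNA-binding subunit of GABP, an ETS-family factor that acts as a complex with GABP beta and binds many promoters of housekeeping and mitochondrial genes. Its level was 139, 149 and 144 TPM in control KD libraries and 185, 191 and 187 TPM in *Yy1* KD libraries. The lowest *Yy1* KD value was above the highest control value. The mean rose from 144 ± 4.98 to 188 ± 3.33 TPM (SD, n = 3 each), or to 130.2% of the control, a log2 fold change of 0.38 (standard error 0.06, 95% interval 0.23 to 0.53, limma adjusted p = 0.0259 after Benjamini-Hochberg adjustment). The call was lost without any one of the 6 libraries (limma adjusted p between 0.0608 and 0.0916), without a filter on low values (0.0511) and without a variance trend (0.0976), over a range of 0.00453 to 0.0976 in all 17 alternatives, and the log2 fold change stayed between 0.35 and 0.43. *Gabpa* overlaps *Atp5j*, a subunit gene of ATP synthase on the opposite strand, over 397 of its 5687 exonic bases (6.98%), and the counting ignored strand. *Atp5j* was at 238 ± 5.19 and 211 ± 15.5 TPM without being called (log2 fold change -0.17, adjusted p = 0.226 from limma).

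GABPA needs GABP beta, encoded by *Gabpb1* and *Gabpb2*, to activate transcription. *Gabpb1* was at 17.4, 16.7 and 15.3 TPM in control KD and 14.5, 16.0 and 15.3 TPM in *Yy1* KD libraries, and *Gabpb2* at 29.9, 22.9 and 24.4 TPM and 22.6, 23.1 and 21.7 TPM. Both pairs of groups overlapped, and neither gene was called (log2 fold change -0.10, 95% interval -0.36 to 0.16, and -0.18, 95% interval -0.47 to 0.11). The ratio of *Gabpa* to the sum of both was 2.94, 3.77 and 3.63 in control KD libraries and 4.99, 4.88 and 5.05 in *Yy1* KD libraries. All *Yy1* KD ratios were above the control ratios, with a mean 1.44 times as high. Of 21 genes of GABP beta and other ETS factors 14 were tested and 0 were called by limma or limma-voom, 2 had an unadjusted p under 0.05, and their median log2 fold change was 0.04. The most abundant, the epithelial ETS factor *Elf3*, was at 257 ± 33.2 and 192 ± 38.1 TPM (limma adjusted p = 0.155).

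*Nfya* (ENSMUSG00000023994.13, chr17:48386885-48409906, minus strand) encodes the subunit of the trimeric factor NF-Y that reads the CCAAT box. Its level was 24.4, 26.1 and 25.4 TPM in control KD and 22.2, 18.8 and 22.1 TPM in *Yy1* KD libraries. The groups did not overlap, with the *Yy1* KD values lower, but *Nfya* was not called (25.3 ± 0.851 against 21.0 ± 1.92 TPM, log2 fold change -0.26, 95% interval -0.51 to -0.01, limma adjusted p = 0.196). Its partners NFYB and NFYC bring a histone-like fold to the complex, and their RNAs were more abundant. *Nfyb* was at 64.03, 58.8 and 61.3 TPM against 59.8, 56.3 and 56.5 TPM, with overlapping groups (log2 fold change -0.09, 95% interval -0.27 to 0.09). *Nfyc* was at 292, 297 and 315 TPM in control KD and 416, 425 and 430 TPM in *Yy1* KD libraries. It rose from 301 ± 12.5 to 423 ± 7.16 TPM (SD of 3 libraries, log2 fold change 0.49 with a standard error of 0.06, limma adjusted p = 0.0130), a call kept in 2 of the 6 fits that left out 1 library (limma adjusted p between 0.0389 and 0.0576). *Nfya* made up 6.42%, 6.83% and 6.32% of the summed TPM of the 3 subunits in control KD and 4.46%, 3.76% and 4.35% in *Yy1* KD libraries, a lower share in all of them. That sum is mostly *Nfyc*, which rose. The ratio of *Nfya* to *Nfyb* overlapped between groups, at 0.38, 0.44 and 0.41 in control KD and 0.37, 0.33 and 0.39 in *Yy1* KD libraries.

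A pair of the factors have the YY1 letters GCCATNTT (AANATGGC on the other strand) in a RefSeq promoter, taken as 250 bases before to 50 after a start. These sites are shown, with the letters in capitals and on the strand of the gene (GRCm38.p6), because YY1 was the protein depleted.
Gabpa, chr16:84835046-84835075, plus strand: gctaagactccGCCATCTTtcctacacttt
Nfya, chr17:48409726-48409755, minus strand: tgttcagattcGCCATTTTgcgaggcagcg
The *Gabpa* letters begin 67 bases before its RefSeq start and outside its annotated exons. They lie within the annotated span of *Gabpa* and also within that of *Atp5j* on the opposite strand. The letters of *Nfya* begin 11 bases after a start and within an annotated exon. These letters occurred in 6.05% of all promoters and, counted per gene, in a promoter of 1012 of 9755 tested genes. *Gabpa* was called higher and *Nfya* was not called. Promoters were matched for 6 of the 10 factors, *Nr5a2*, *Obox3*, *Rarg*, *Sp1*, *Gabpa* and *Nfya*. No promoter was matched for *Klf5*, *Dppa2*, *Dppa4* and *Obox6*.

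*Dppa2* (ENSMUSG00000072419.5, chr16:48303908-48319723) and *Dppa4* (ENSMUSG00000058550.15, chr16:48283733-48294237) lie side by side on the plus strand, 9671 bases apart, and encode SAP-domain proteins that bind each other and act on chromatin early in development. *Dppa2* was at 794, 735 and 686 TPM in control KD and 944, 942 and 895 TPM in *Yy1* KD libraries. All *Yy1* KD values were above the controls. The mean was 738 ± 54.0 and 927 ± 27.7 TPM (SD, n = 3 each), and the gene was not called at the threshold (log2 fold change 0.33, standard error 0.08, 95% interval 0.15 to 0.52, limma adjusted p = 0.0577). It was called in 3 of 18 alternatives (range of adjusted p 0.00550 to 0.159): when genes needed a mean TPM of 5 or more, where 11.4% of genes were called, among genes of at least 200 bases with TPM rescaled (8.8% called), and by limma-voom on recovered read pairs (12.3% called).

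*Dppa4* was at 313, 260 and 257 TPM in control KD and 298, 324 and 308 TPM in *Yy1* KD libraries. The first control KD library lay within the range of the *Yy1* KD libraries, so the groups overlapped. The call was not reached (log2 fold change 0.17, 95% interval -0.05 to 0.39, limma adjusted p = 0.331). The ratio of *Dppa2* to *Dppa4* was 2.54, 2.83 and 2.67 in control KD and 3.16, 2.91 and 2.91 in *Yy1* KD libraries. The ratios did not overlap, and the *Yy1* KD mean was 1.12 times that of the control.

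*Obox6* (ENSMUSG00000041583.8, chr7:15833241-15839678, minus strand) belongs to the oocyte-specific homeobox family. It was at 622, 585 and 431 TPM in control KD and 500.1, 495 and 519 TPM in *Yy1* KD libraries. Control KD replicate 3 was lower than all others, and the *Yy1* KD values fell within the control range. The log2 fold change was -0.10 (95% interval -0.43 to 0.23, limma adjusted p = 0.728).

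*Obox3* (ENSMUSG00000066772.12, chr7:15479825-15639902, minus strand), another member of the family, was under the filter and not tested. It was at 0.939 and 0.126 TPM in control KD replicates 1 and 3 and listed at 0 in replicate 2. In the *Yy1* KD libraries it was at 0.0809 and 2.59 TPM in replicates 1 and 2 and listed at 0 in replicate 3. The highest value corresponded to 45 read pairs, and only this library was above 1 TPM. *Obox3* belongs to a multigene family with similar copies, which makes its level uncertain. Of 8 *Obox3* pseudogenes listed, 6 were also highest in *Yy1* KD replicate 2, at 2.08 to 8.16 TPM, where their other libraries reached at most 2.004 TPM, and 1 was at 0 throughout.

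*Obox6* was 92.7% to 94.2% of the summed TPM of the Obox genes listed in control KD and 91.7% to 97.9% in *Yy1* KD libraries. *Obox8* came next, at 34.9, 31.1 and 29.7 TPM in control KD and 5.76, 31.5 and 24.7 TPM in *Yy1* KD libraries. Its low value in 1 *Yy1* KD library left the groups overlapping (log2 fold change -0.88, 95% interval -2.19 to 0.42, limma adjusted p = 0.387). *Obox1*, *Obox2* and *Obox5* were between 1.06 and 5.69 TPM in every library, and *Obox7* was under 1 TPM in all of them. Of the 5 Obox relatives 4 were tested and 0 were called by limma or limma-voom, none had an unadjusted p under 0.05, and their median log2 fold change was 0.22.

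*Klf5* (ENSMUSG00000005148.8, chr14:99298691-99315036, plus strand) encodes a zinc finger factor needed in both the outer and the inner cells of the early embryo. It was at 356, 356 and 318 TPM in control KD and 307, 361 and 333 TPM in *Yy1* KD libraries. The groups overlapped, and the log2 fold change was -0.04 (95% interval -0.25 to 0.17, limma adjusted p = 0.809). *Klf5* took 35.9% to 37.5% of the summed TPM of the KLF genes in control KD and 37.0% to 37.6% in *Yy1* KD libraries. Of 16 other KLF genes 12 were tested and 1 was called, with a median log2 fold change of -0.14. Without overlap, 3 were lower and 0 higher, where 30.1% of all genes did not overlap, and 3 had an unadjusted limma p under 0.05. With a filter at a mean TPM of 5 limma called 2 (11.4% of all genes called there). *Klf13*, a family member that binds GC-rich promoters, fell from 28.3 ± 1.71 to 19.3 ± 0.964 TPM (log2 fold change -0.53, standard error 0.10, limma adjusted p = 0.0318), a call lost in all 6 fits that left out 1 library (0.0709 to 0.0987). *Klf4*, the most abundant relative and a pluripotency factor, was at 172 ± 15.9 and 186 ± 13.2 TPM (limma adjusted p = 0.511).

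*Sp1* (ENSMUSG00000001280.13, chr15:102406143-102436404, plus strand) was at 93.8, 93.7 and 83.6 TPM in control KD and 93.0, 109 and 85.9 TPM in *Yy1* KD libraries. The second *Yy1* KD library was the highest, and the other 5 lay between 83.6 and 93.8 TPM. The log2 fold change was 0.08 (95% interval -0.18 to 0.34, limma adjusted p = 0.696). *Sp3*, which binds the same GC box, was at 42.0 ± 7.05 and 54.1 ± 6.40 TPM (log2 fold change 0.36, 95% interval 0.02 to 0.71, limma adjusted p = 0.187). Of 8 SP relatives 5 were tested and 0 were called by limma or limma-voom, 1 had an unadjusted p under 0.05, and their median log2 fold change was 0.01. The *Sp1* promoter held GGGCGG at 4 positions and CCAAT at 3, 1 of each sharing 2 bases.

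Over the 8 lists of relatives and partners, 99 genes in all, 70 were tested, 2 were called higher and 3 lower, where 6.11% of all genes tested were called, so the share of calls was near that of all genes. The other calls were among 10 general coactivators, all of which were tested, with a median log2 fold change of -0.10. *Brd2*, which binds acetylated histones, rose from 208 ± 13.3 to 301 ± 11.9 TPM (log2 fold change 0.53, standard error 0.07, limma adjusted p = 0.0156). *Crebbp*, a histone acetyltransferase, fell from 95.3 ± 2.48 to 76.5 ± 0.639 TPM (log2 fold change -0.31, standard error 0.07, limma adjusted p = 0.0432). The first call was kept in 2 and the second in 0 of the 6 fits that left out 1 library (adjusted p between 0.0399 and 0.0675 and between 0.0923 and 0.124). Exons of *Brd2* overlap those of other annotated genes, so it too was not part of the fit on genes without exonic overlap. *Smarca5*, a chromatin remodeler and the most abundant of the list, was at 372 ± 9.29 and 391 ± 9.34 TPM (limma adjusted p = 0.550).

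**Figure D3:**
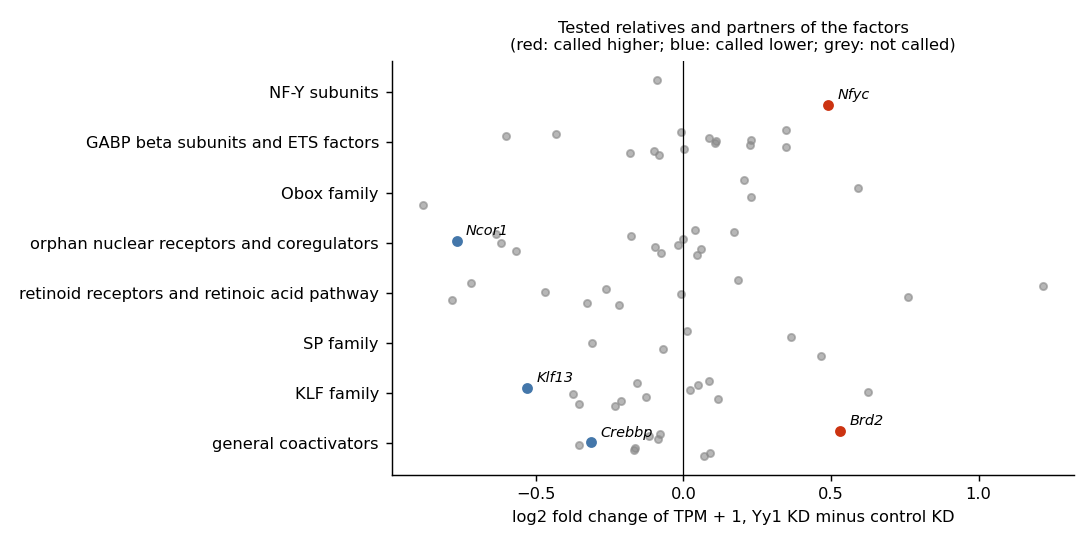
Log2 fold change of TPM + 1, *Yy1* KD minus control KD, of the tested genes in 8 lists of relatives and partners of the factors (1 point per gene, spread vertically within a list for legibility; red, called higher; blue, called lower; grey, not called). The 5 called genes are named, and *Nfyc* (0.49) and *Brd2* (0.53) stand to the right of 0 while *Ncor1* (-0.77), *Klf13* (-0.53) and *Crebbp* (-0.31) stand to the left.

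Ratios within a library do not depend on how that library was scaled. Of 13 ratios and shares computed for the factors and their partners, 6 had groups that did not overlap, each with p = 0.1 in a two-sided exact permutation test, the smallest p that 3 libraries against 3 allow (0.217 after Benjamini-Hochberg adjustment over the 13). The 6 were *Gabpa* to GABP beta, *Dppa2* to *Dppa4*, *Gabpa* to *Rarg*, *Rarg* to *Rxra*, *Nfya* to *Nfyc* and the *Nfya* share of NF-Y. Apart from *Dppa2* to *Dppa4*, each holds a called gene (*Gabpa*, *Rarg* or *Nfyc*), so its separation partly restates that call. The ratios were not among the planned results, and their p-values are given as a description. The ratio of *Gabpa* to *Rarg*, which restates the opposite calls of these genes, was 1.20, 1.23 and 1.32 in control KD libraries and 2.44, 2.44 and 2.39 in *Yy1* KD libraries.

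**Figure D4:**
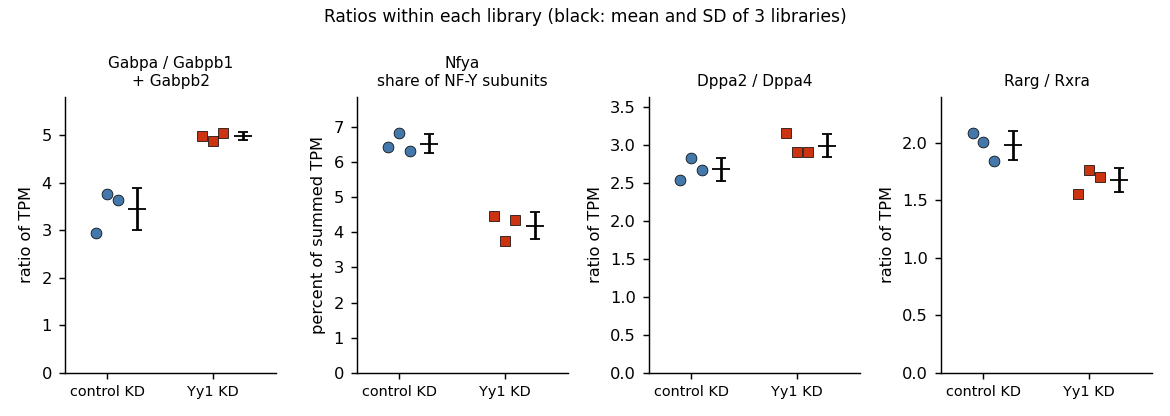
Ratios or shares of TPM within each library for *Gabpa* over *Gabpb1* plus *Gabpb2*, the *Nfya* share of the 3 NF-Y subunits, *Dppa2* over *Dppa4* and *Rarg* over *Rxra* (circles, control KD; squares, *Yy1* KD; black, mean and SD of 3 libraries; axes start at 0). In all 4 panels the groups are apart, by the widest relative margin in the GABP and NF-Y panels.

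The genes whose profile over the 6 libraries was most like that of a called factor were sought among the 8083 genes whose mean TPM was 10 or more, by Pearson's r of log2(TPM + 1). Because the libraries form separate groups, r is given as a description of likeness. For *Gabpa* they were *Eif4a1* (r = 0.998), a translation initiation helicase, *Gm14401* (0.996) and *Gm15427* (0.996). For *Rarg* they were *Prmt5* (r = 0.999), an arginine methyltransferase, *Abl2* (0.998), a tyrosine kinase, and *Prdx3* (0.997), a mitochondrial peroxidase. In all, 40 genes had an r over 0.98 with *Gabpa* and 68 with *Rarg*.

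Letters that these factors bind were also counted in the RefSeq promoters of 9755 tested genes, on both strands. CCAAT, the letters of NF-Y (ATTGG on the other strand), stood in a promoter of 42.1% of the genes called lower, 46.9% of those called higher and 43.3% of those not called. The GC box GGGCGG stood in 70.9%, 68.8% and 66.1%, and CCACCC in 39.1%, 34.4% and 39.7%. CCGGAAGT, the ETS letters read by GABPA (ACTTCCGG on the other strand, in 3.89% of all promoters), stood in 34 of the 516 genes called lower (6.59%), in 23 of the 192 called higher and in 868 of the 9047 not called (9.59%). TCAAGGNCA, the letters of NR5A2 (TGNCCTTGA, 1.62% of all promoters), stood in 1.94%, 3.12% and 1.41%, and TAATCC, read by OBOX-type homeodomains (GGATTA, 7.06%), in 6.98%, 8.33% and 7.2%.

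These shares were given without a test. CCAAT was found in 37.4% of all promoters. For each of these sets of letters the median log2 fold change of genes with them was between -0.05 and 0.01. The YY1 letters GCCATNTT stood in 27.7% of the 516 genes called lower, 14.1% of the 192 called higher and 9.31% of the 9047 not called, and the median log2 fold change was -0.15 with and -0.02 without them. The letters of the different factors can share bases where they abut, and a match says only that the letters are present.

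**Figure D5:**
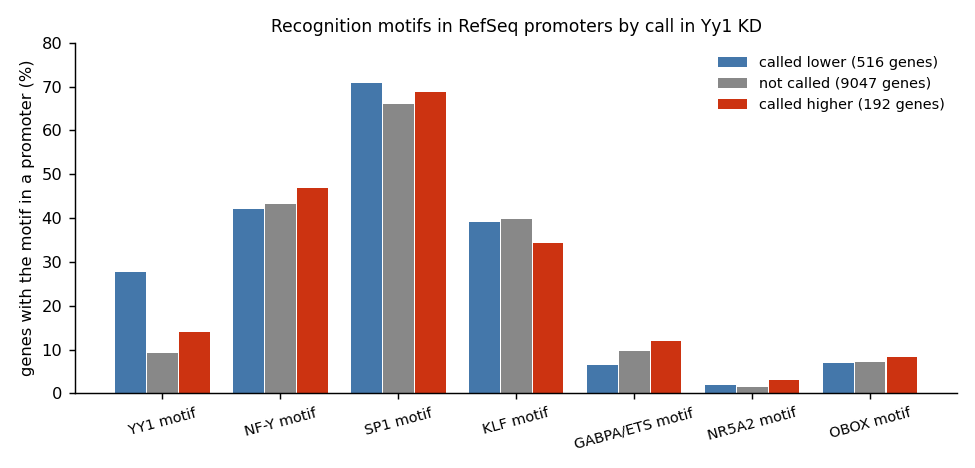
Share of genes, in percent, with each set of letters in a RefSeq promoter, for genes called lower (516, blue), not called (9047, grey) and called higher (192, red) in *Yy1* KD morulae. The YY1 bars differ most between genes called lower (27.7%) and not called (9.31%), while the bars of NF-Y lie between 42.1% and 46.9%.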

How the data were processed

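RNA-seq libraries were prepared from embryos with a kit for very small RNA amounts (SMART-Seq stranded). The submitters' processing notes name Trim Galore 0.6.7, HISAT2 2.2.1, bedtools and featureCounts 2.0.1 with mm10. The authors trimmed and aligned the reads, removed ribosomal reads, counted pairs per gene without regard to strand, dividing pairs that overlapped several annotated genes, and deposited TPM. TPM depends on all genes of a library, so abundant RNAs can lower the rest. The authors tested counts with edgeR. As TPM are no counts, limma 3.58.1 (R 4.3.3, variance trend, equal weights) was fitted here to log2(TPM + 1) over genes with at least 1 TPM in at least 3 libraries, which understates the change of low genes, and was tested on simulated data. Python 3.11.15 served for the summaries, with scipy 1.17.1 and pandas 2.3.3, and matplotlib 3.10.9 for the plots.

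Coordinates are from GENCODE vM21 (GRCm38), which matched 98.1% of the gene identifiers. Read pairs on genes were recovered from TPM and exon length (88.97% to 90.86% of values under 20 pairs came out whole within 0.02 pairs). The same-numbered libraries showed little joint deviation (r of 0.0747 or less), so no replicate block was used in the main fit. Genes named were all 10 factors, *Yy1*, the called and the most abundant genes of each related list, the subunits of NF-Y and GABP, the Obox genes and the 3 profiles most like each called factor. *Atp5j*, *Sox2*, *Fgf4*, *Tdgf1*, *Id2*, the *Obox3* pseudogenes, *Rara* and *Rarb* were named after their values were seen. So were *Nanog*, *Pou5f1*, *Utf1*, *Gata6*, *Cdx2*, *Gata3*, *Eomes*, *Krt8*, *Krt18*, *Rdh10* and *Crabp2*. The factors and lists were chosen with earlier results of these data known. Alternatives were quantile or median-ratio scaling, a pseudocount of 0.1, no filter or one at a mean TPM of 5, robust variances or no variance trend, library weights, a replicate block, leaving out each library, a narrower promoter window and, added after seeing the data, limma-voom on recovered pairs, genes of at least 200 bases and genes without exonic overlap.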

Additional observations from a re-analysis of the deposited data

How the results depend on the processing

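*Yy1* was called in all 18 alternatives. Each of the 9 tested factors kept its direction in every alternative except 3, whose changes were near 0: when 1 library was left out, *Obox6* lay between -0.257 and 0.007 (positive without control KD replicate 1), *Klf5* between -0.103 and 0.015 (positive without *Yy1* KD replicate 1) and *Sp1* between -0.014 and 0.158 (negative without *Yy1* KD replicate 2). The number of factors called, 2, became 1 without a filter, 1 without a variance trend and 1 among genes without exonic overlap, where *Gabpa* was not tested, and lay between 0 and 1 when 1 library was left out. It became 3 at a mean TPM of at least 5, with limma-voom on recovered pairs and among genes of at least 200 bases. The 5 called genes of the related lists became 2 without a filter, 8 at a mean TPM of at least 5 (11.4% of all genes called there), 3 with quantile normalization, 1 without a variance trend, 9 with limma-voom on recovered pairs (12.3%), 8 among genes of at least 200 bases (8.8%) and 3 without exonic overlap, and 0 to 2 when 1 library was left out. *Ncor1* and *Brd2* were not tested among genes without exonic overlap. Over all genes, 333 were called higher and 728 lower. These became 77 and 270 without a filter, 132 and 382 without a variance trend, 809 and 1280 with limma-voom, and 212 and 399 without exonic overlap, where fewer genes were tested. Leaving out 1 library gave 22 to 92 higher and 53 to 326 lower, with the lowest counts without control KD replicate 3. Lower calls were 68.6% of all calls, and between 58.5% (quantile normalization) and 80.1% (without *Yy1* KD replicate 3) in the alternatives. The causes of the other changes were not tested.

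Same-numbered libraries showed little joint deviation from their group means (r of -0.00388, 0.0319 and 0.0747). For libraries of different number r lay between -0.0713 and 0.0411. So small an r over all genes cannot show whether the libraries were paired. With the numbers as a replicate block, 69 genes were called higher and 218 lower, 0 factors (limma adjusted p = 0.0521 for *Rarg* and 0.0782 for *Gabpa*) and 0 genes of the related lists.

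Within 50 bases of the start, the median log2 fold change of genes with the YY1 letters was -0.21, that with the NR5A2 letters 0.03 and that with the OBOX letters 0.05. *Obox3* was too low to test, and its values rest on 0 to 45 read pairs.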

Other observations

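Of the 18 morula and lineage markers, 1 was called, where 6.11% of all genes tested were called, and 6 had an unadjusted p under 0.05 in limma. *Tfap2c*, an AP-2 factor of the outer cells, fell from 183 ± 7.24 to 126 ± 9.14 TPM (SD, n = 3 libraries each; log2 fold change -0.54, limma adjusted p = 0.0174 after Benjamini-Hochberg adjustment). The call was kept in 1 of the 6 fits that left out 1 library (limma adjusted p between 0.0346 and 0.0668). Groups overlapped for *Cdx2* (log2 fold change 0.002), *Gata3* (-0.138), *Eomes* (-0.133), *Krt8* (-0.454) and *Krt18* (0.043), also genes of the outer cells. *Sox2*, *Fgf4* and *Tdgf1*, genes of the inner cells, were lower without overlap but not called. *Sox2* was at 10.98 ± 2.91 and 5.60 ± 1.51 TPM (log2 fold change -0.86, limma adjusted p = 0.0942), *Fgf4* at 15.9 ± 4.72 and 7.06 ± 1.90 TPM (log2 fold change -1.06, limma adjusted p = 0.0607) and *Tdgf1* at 60.8 ± 19.7 and 32.5 ± 5.41 TPM (log2 fold change -0.84, limma adjusted p = 0.108). Other markers of the list did not all follow. The groups overlapped for *Nanog* (log2 fold change -0.219), *Pou5f1* (-0.059) and *Utf1* (0.245), and *Gata6* was higher without overlap (0.115). *Id2*, an inhibitor of basic helix-loop-helix factors, was higher without overlap, at 1.73 ± 0.470 and 5.16 ± 2.36 TPM, without being called (log2 fold change 1.12, adjusted p = 0.0893 from limma). All of these except *Tfap2c* were named after their values were seen. *Dppa3*, a maternal chromatin protein and the most abundant marker, was at 4539 ± 322 and 4765 ± 96.7 TPM (limma adjusted p = 0.673). The oocyte transcript with the highest level, *Gdf9*, was at 18.4 ± 3.08 and 20.7 ± 0.659 TPM (limma adjusted p = 0.498).

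The neighbours of the factors gave further values, chosen after they were seen. *Oard1*, which starts 108 bases from *Nfya* on the opposite strand, was at 78.9 ± 11.4 and 64.9 ± 3.16 TPM without being called (log2 fold change -0.27, adjusted p = 0.227 from limma). *Itgb7*, 2994 bases from *Rarg*, was at 16.4 ± 4.08 and 20.7 ± 2.997 TPM (log2 fold change 0.34, limma adjusted p = 0.348). *Amhr2*, 8963 bases from *Sp1* and the highest of the cumulus and granulosa markers, was at 8.91 ± 0.979 and 8.09 ± 0.819 TPM (limma adjusted p = 0.663).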
